A study of Mus musculus with 24 samples.

Results

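Insulin-like growth factor (IGF) genes were followed across the carotid arteries of ovariectomized mice given placebo, 17β-estradiol (E2), estetrol (E4) or tamoxifen (TAM). The 10 genes were taken by name: the ligands Igf1 and Igf2, the receptors Igf1r and Igf2r, and the binding proteins Igfbp2, Igfbp3, Igfbp4, Igfbp5, Igfbp6 and Igfbp7. Their Ensembl identifiers were matched to symbols in GENCODE M21, and all 10 were found among the 55421 genes of the count tables and among the 25033 genes with enough counts to be tested.

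IGF1 and IGF2 are small secreted proteins related to insulin that promote growth and survival of many cells, smooth muscle cells of the artery wall among them. They act through the tyrosine kinase receptor encoded by Igf1r, whereas the product of Igf2r binds IGF2 and carries it to lysosomes. IGF-binding proteins hold the ligands outside the cell, prolong their life, limit their access to the receptor, and are cut by proteases that set the ligands free. Estrogens act on IGF genes in several organs, including the uterus.

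All mice were C57BL/6 females, labelled as 9 weeks old, and all had been ovariectomized, so that the placebo group (OVX) had little ovarian hormone and the other 3 groups received 1 agent each. E2 is the main ovarian estrogen, E4 is an estrogen made by the human fetal liver, and TAM is a selective estrogen receptor modulator. The series text gives 3 weeks of treatment. The methods of the paper describe a shorter course, and E2 and E4 were given at different doses. The paper set the E4 dose to match the estrogenic effect of E2, and reports similar uterine, vaginal and thymic responses. No injury was named in the labels of these arteries. Each group had 6 libraries of whole-artery RNA. The treatment entry of the E4 libraries reads placebo, and they were assigned to E4 by their titles. The labels do not say that each library is a separate animal, so the p-values measure the spread between these libraries. The legend of the sequencing figure in the paper gives fewer samples per group than the 6 libraries used here.

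Total counts ran from 24647246 in E4 library C38 to 64221401, with a median of 45156106. The defining markers of artery wall were present: all 10 smooth muscle and all 10 endothelial markers passed the filter, and no marker of either list was at 0 in any library. Other tissue was present as well. Markers of sympathetic ganglion, which lies beside the carotid, summed to 41.0 CPM (read counts scaled to a common library size) in OVX library C5 and 243 CPM in TAM library C35, against 2470 to 9130 CPM in the other 22 libraries. T cell markers summed to 383 CPM in E2 library C9 and to no more than 50.2 CPM elsewhere. Calls that changed without OVX C5 and TAM C35 are given both ways. B cell markers summed to 7.60 to 46.2 CPM in OVX and to 4.90 to 9.42 CPM in E4, and 9 of the 10 were lower in E4 against OVX. White adipocyte markers summed to 3921 to 9383 CPM over the 24 libraries, with 3 of 10 lower and 1 higher in E4 against OVX. Brown adipocyte markers summed to 1239 to 3083 CPM in OVX and 1052 to 1496 in E4, with 5 of 10 lower. Schwann cell markers summed to 629 to 1854 CPM in E2 and 1853 to 4355 in E4, with 4 of 10 higher in E4 against E2. The part of brown adipocytes and Schwann cells in the values below was not tested. In whole arteries, fewer cells of a type and less RNA per cell cannot be told apart.

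For 3 genes that changed, the 250 bases before the start of transcription are shown as RefSeq gives them for GRCm38.p6, 5′ to 3′ on the gene's strand, so that the letters beside the start can be read next to the values. They are the windows of the binding proteins that fell under E2, Igfbp3 and Igfbp2, and of the receptor Igf1r, which rose under E4. Their letters overlap no exon of GENCODE M21. Capitals mark matches to any of 5 short motifs searched on both strands: the estrogen response element GGTCANNNTGACC, its half-site GGTCA, the GC box GGGCGG, the TATA box TATAAA and the AP-1 site TGANTCA.
Igfbp3, chr11:7213924-7214173, minus strand: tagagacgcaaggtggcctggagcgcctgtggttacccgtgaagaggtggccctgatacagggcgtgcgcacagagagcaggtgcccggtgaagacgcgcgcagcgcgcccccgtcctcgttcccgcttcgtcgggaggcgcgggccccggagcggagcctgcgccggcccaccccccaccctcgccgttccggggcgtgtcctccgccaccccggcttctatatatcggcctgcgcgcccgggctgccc
Igfbp2, chr1:72824230-72824479, plus strand: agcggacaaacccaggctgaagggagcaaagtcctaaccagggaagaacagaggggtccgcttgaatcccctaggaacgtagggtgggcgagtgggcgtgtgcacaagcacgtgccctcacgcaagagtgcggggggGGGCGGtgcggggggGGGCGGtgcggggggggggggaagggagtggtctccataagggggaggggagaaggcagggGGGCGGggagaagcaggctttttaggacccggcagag
Igf1r, chr7:67952007-67952256, plus strand: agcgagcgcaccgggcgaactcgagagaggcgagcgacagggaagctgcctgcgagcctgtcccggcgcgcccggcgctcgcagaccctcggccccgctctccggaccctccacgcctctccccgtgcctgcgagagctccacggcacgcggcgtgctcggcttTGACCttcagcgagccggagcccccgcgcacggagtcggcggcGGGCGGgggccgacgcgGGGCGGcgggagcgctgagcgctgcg

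The Igfbp3 window held none of the 5 motifs, at a GC content of 73.2%. The Igfbp2 window shown held the GC box 3 times. The other Igfbp2 window, chr1:72825137-72825386, held a half-site 31 bases and an AP-1 site 39 bases before its start, and its letters overlap an exon in part. In the Igf1r window the half-site was read on the opposite strand from 86 bases before the start (-86), followed by 2 GC boxes. That start is the one of RefSeq. The window ends at 67952256, whereas the Igf1r gene of GENCODE M21 begins at 67952827, farther from these motifs. The table held 14 windows for the 10 genes, since Igf2 had 4 starts and Igfbp2 had 2. The full estrogen response element was in 0 of the 14 windows and in 0.0639% of all 32851 windows. The half-site was in 8 of the 14, against 35.2% of all windows, the GC box in 6 against 32.7%, the TATA box in 2 against 12.4% and the AP-1 site in 2 against 6.75%. The half-site is part of the full element, so the 2 searches overlap. These matches are a description of the letters in a short window.

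The abundance of the 10 transcripts was compared as CPM per kb of annotated exon, since the genes differ in length. Transcripts of 4 binding proteins were the most abundant. In OVX arteries Igfbp7 stood at 173 ± 42.5 CPM per kb (mean ± SD, n = 6), Igfbp4 at 152 ± 35.3, Igfbp5 at 124 ± 31.7 and Igfbp6 at 110 ± 41.4, and the ranges of neighbours in this order overlapped. A gap followed. Igf1 was at 10.5 ± 1.58 CPM per kb and Igfbp3 at 10.5 ± 1.21, with overlapping ranges, and Igf2r was at 8.34 ± 0.694. Igf1r was lower than Igf2r without overlap, at 4.62 ± 0.511 CPM per kb, and overlapped Igf2, at 3.37 ± 0.492. The place of Igf2 is uncertain, since its reads were divided with the overlapping gene Gm49394. With the counts of both summed it was at 6.62 ± 0.978 CPM per kb of Igf2 exon, above Igf1r without overlap. Igfbp2 was the least abundant, at 0.931 ± 0.345 CPM per kb.

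**Figure D1:**
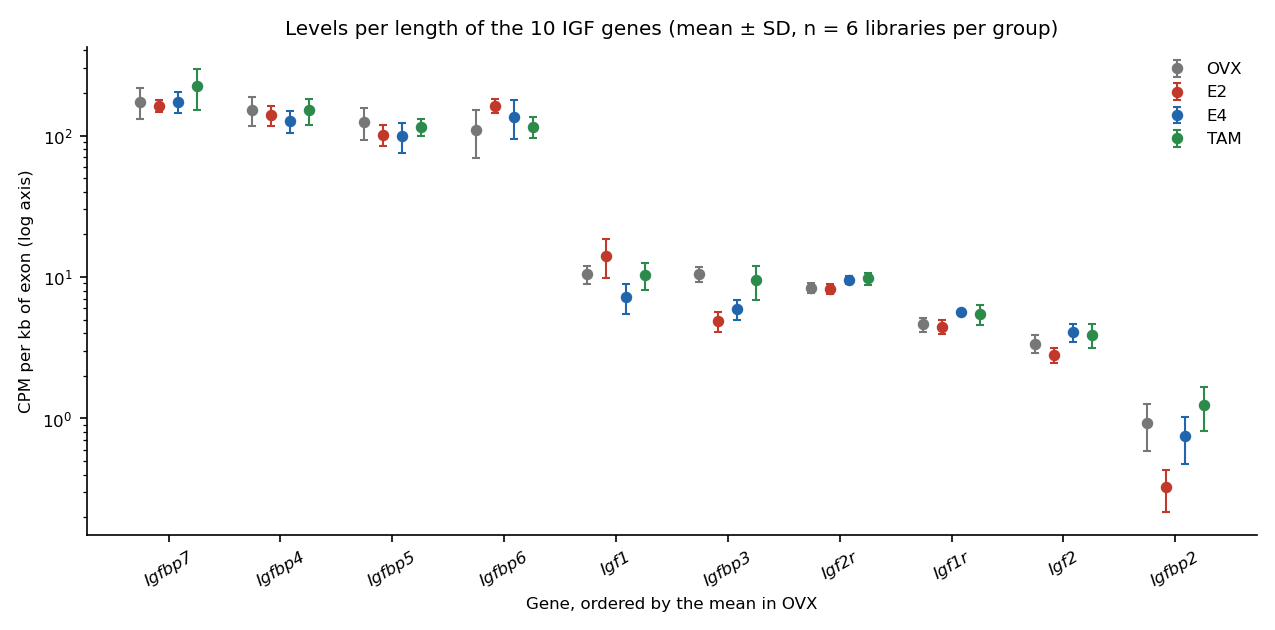
Level of each IGF gene in the 4 groups, as CPM per kb of exon on a log axis, with points for the mean and bars for the SD of 6 libraries. The 4 abundant binding proteins stand above the other 6 genes in every group, and Igfbp2 is lowest in every group.

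The same gap separated the 4 abundant binding proteins from the other 6 genes in the E2, E4 and TAM groups. Below it the order changed. Under E2, Igfbp3 dropped below Igf2r without overlap, to 4.88 ± 0.805 CPM per kb, while Igf1 was at 14.1 ± 4.36. Under E4, Igf2r led these 6 genes at 9.52 ± 0.619 CPM per kb, with Igf1 at 7.23 ± 1.76 and overlapping it. Igfbp7 ranked first in OVX, E4 and TAM, and Igfbp6 and Igfbp7 were level under E2, at 163 ± 17.9 and 162 ± 15.7 CPM per kb.

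The position of each gene in GRCm38 is given once here. Igf1 (ENSMUSG00000020053) lies on chromosome 10 from 87858265 to 87937042, and Igf2 (ENSMUSG00000048583) on chromosome 7 from 142650766 to 142666816. Igf1r (ENSMUSG00000005533) spans 67952827 to 68233668 of chromosome 7, and Igf2r (ENSMUSG00000023830) spans 12682406 to 12769664 of chromosome 17. Igfbp2 (ENSMUSG00000039323) and Igfbp5 (ENSMUSG00000026185) are neighbours on chromosome 1, at 72824503 to 72852474 on the plus strand and 72857932 to 72874884 on the minus strand. Igfbp3 (ENSMUSG00000020427) and Igfbp4 (ENSMUSG00000017493) are both on chromosome 11, at 7206086 to 7213923 and 99041244 to 99054392. Igfbp6 (ENSMUSG00000023046) is at 102144362 to 102149511 of chromosome 15, and Igfbp7 (ENSMUSG00000036256) at 77349240 to 77408041 of chromosome 5. Counts are over all exons of a gene. The exons of Igf2 share 3596 bases, 62.8% of their length, with Gm49394, a gene on the same strand, and those of Igfbp7 share 85 bases, 7.03%, with Polr2b on the other strand.

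Across the 4 groups together, 6 of the 10 genes differed at an adjusted p under 0.05 in edgeR's quasi-likelihood test: Igfbp3 (adjusted p = 3.47e-05), Igfbp2 (0.00146), Igf1 (0.00665), Igf2 (0.0121), Igf1r (0.0225) and Igf2r (0.0266). Of all genes tested, 21% passed the same test. The 4 abundant binding proteins did not pass, with adjusted p of 0.486 for Igfbp4, 0.308 for Igfbp5, 0.105 for Igfbp6 and 0.138 for Igfbp7.

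**Figure D2:**
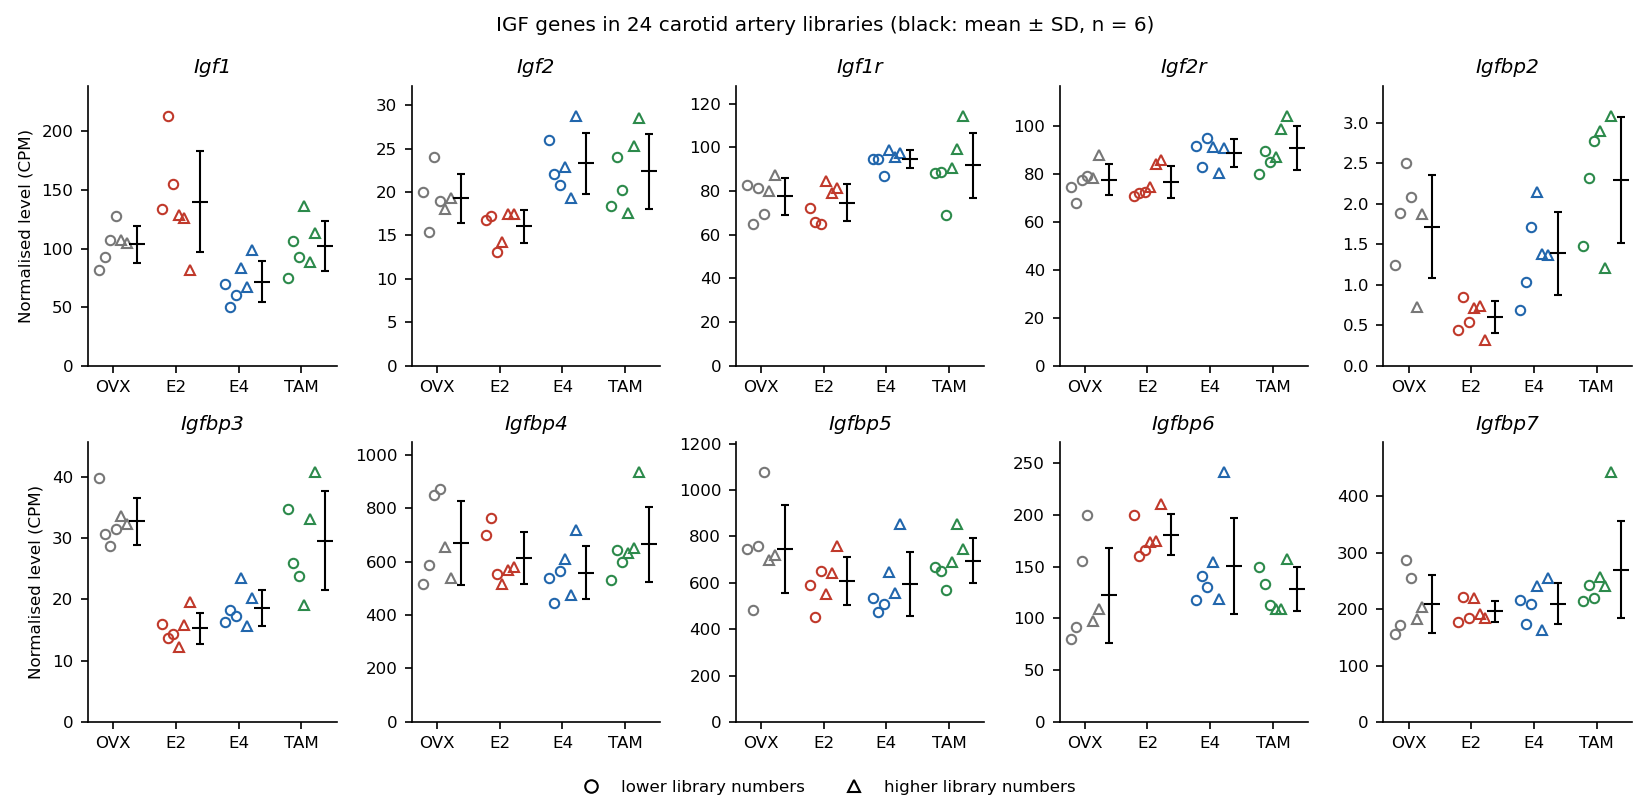
CPM of each of the 10 IGF genes in each of the 24 libraries, on axes that start at 0, with circles for library numbers up to 20, triangles for numbers from 24 on, and black bars for the mean ± SD of 6 libraries. The 6 E2 libraries of Igfbp3 lie between 12.3 and 19.6 CPM, below all 6 OVX libraries at 28.8 to 39.7 CPM.

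The question of the pairwise comparisons was what each agent did to these transcripts in the artery wall, and whether E4 and TAM acted like E2. Passing below means an adjusted p under 0.05, and the study's own cut also asks for an absolute log2 fold change over 1. The comparisons share libraries, the OVX group in 3 of them, so they are not independent of each other.

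**Figure D3:**
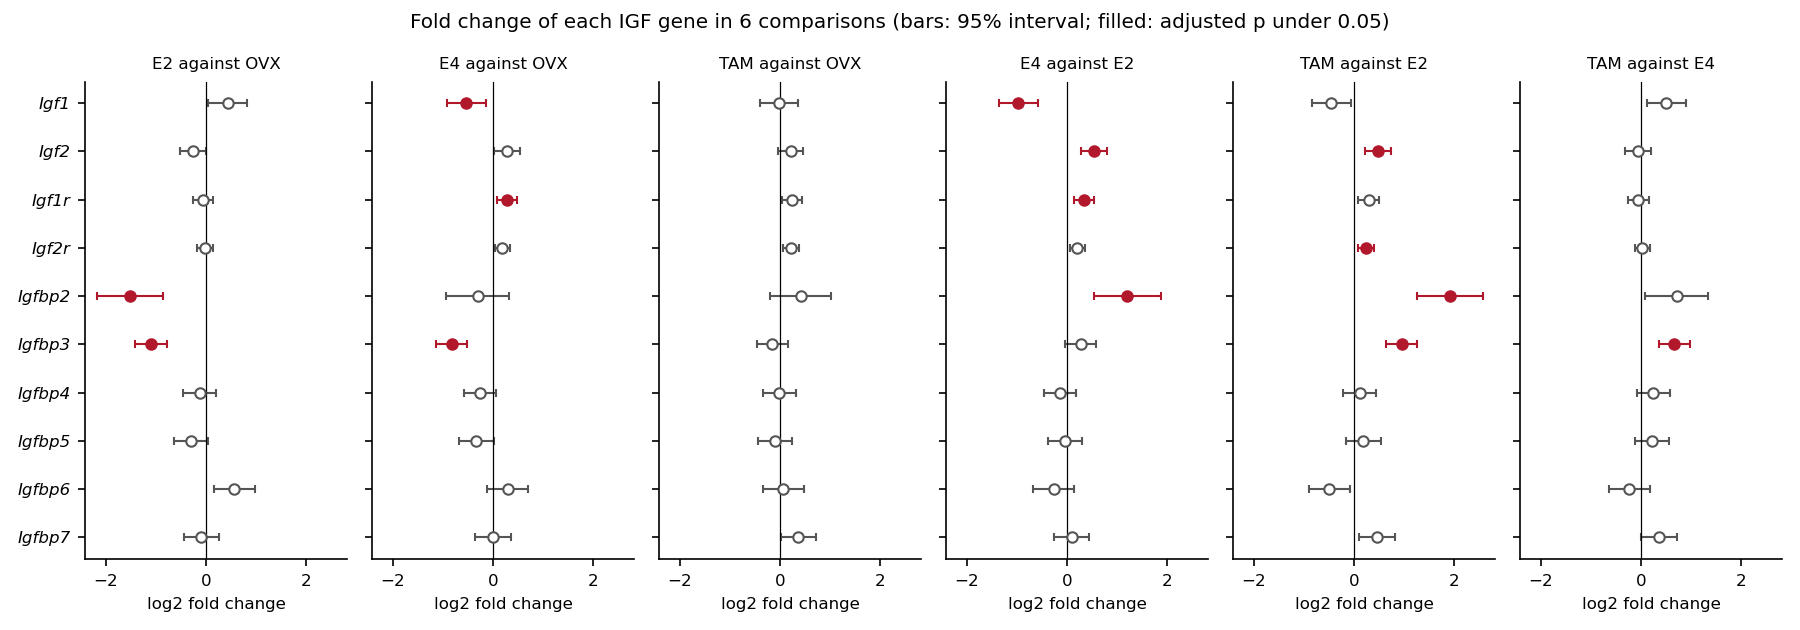
Log2 fold change of the 10 IGF genes in 6 comparisons, with bars for the 95% interval and filled red points for an adjusted p under 0.05. Igfbp3 is filled on the lower side under E2 and under E4 against OVX, and Igf1 is filled on the lower side only in the panels of E4 against OVX and E4 against E2.

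Among the binding proteins, Igfbp3 showed the smallest adjusted p of the 10 genes against OVX, under E2 and under E4. Igfbp3 encodes the main IGF carrier of blood plasma and is also made in tissues, where its product can act apart from IGF. OVX libraries ranged from 28.8 to 39.7 CPM with a median of 31.9, E2 libraries from 12.3 to 19.6 with a median of 15.1, E4 libraries from 15.7 to 23.5 with a median of 17.8, and TAM libraries from 18.99 to 40.7 with a median of 29.5. Every E2 and every E4 library was below every OVX library, and the TAM libraries spread over both ranges. Igfbp3 fell by 53.3% under E2 (log2 fold change -1.10, SE 0.15, adjusted p = 3.92e-05) and by 43.3% under E4 (log2 fold change -0.82, SE 0.15, adjusted p = 0.00108). The direct comparison of E4 with E2 gave a log2 difference of 0.28, with a 95% interval from -0.03 to 0.59 (adjusted p = 0.21), so neither an equal fall nor a smaller fall under E4 was shown. With the B cell list as a covariate the E4 value against OVX was -0.80 (adjusted p = 0.0762).

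TAM differed from both estrogens in Igfbp3. Against OVX the TAM value was -0.15, with an interval from -0.46 to 0.16 (adjusted p = 0.605). Igfbp3 was 1.94-fold higher under TAM than under E2 (log2 fold change 0.95, SE 0.15, adjusted p = 0.000257), although the ranges of the 2 groups overlapped. Against E4 it was higher by 0.67 (SE 0.15, adjusted p = 0.0474), a call that did not hold without TAM C35, at 0.55 and an adjusted p of 0.148, nor without OVX C5 and TAM C35, at 0.55 and an adjusted p of 0.118. With the B cell and fibroblast lists as covariates it was 0.67 and 0.64 (adjusted p = 0.0929 and 0.149), and it was lost in 12 of 17 settings other than leaving out 1 library. The call held in 7 of 24 fits with 1 library left out, those without OVX C2 or C5, E2 C26 or C29, TAM C13 or C32, or E4 C36; in the other 17 the adjusted p ran from 0.0557 to 0.148.

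Igfbp2, whose product binds both IGFs and is a frequent binding protein of growing tissue, was scarce in these arteries and fell most in fold under E2. OVX libraries ranged from 0.723 to 2.50 CPM with a median of 1.88, E2 libraries from 0.320 to 0.851 with a median of 0.631, E4 libraries from 0.686 to 2.15 with a median of 1.37, and TAM libraries from 1.21 to 3.09 with a median of 2.55. The E2 libraries were low as a group, with 1 OVX library and 1 E4 library inside their range, and no TAM library overlapped them. Under E2 Igfbp2 fell by 64.9% (log2 fold change -1.51, SE 0.31, adjusted p = 0.00475), and in the library numbers up to 20 alone the value was -1.66 and did not pass (adjusted p = 0.0571). Under E4 it did not pass against OVX, at -0.30 with an interval from -0.93 to 0.32. E4 and E2 differed directly: Igfbp2 was 2.31-fold higher under E4 (log2 fold change 1.21, SE 0.32, adjusted p = 0.0176). That call did not hold with the B cell list as a covariate (1.31, adjusted p = 0.0522), with the white adipocyte list (1.18, adjusted p = 0.0555) or in the library numbers up to 20 alone (0.91, adjusted p = 0.134). Igfbp2 was 3.80-fold higher under TAM than under E2 (1.92, SE 0.32, adjusted p = 0.000397). TAM did not pass against OVX (0.41, adjusted p = 0.44) or against E4 (0.72, adjusted p = 0.461).

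The 2 falls of Igfbp2 and Igfbp3 were the only calls among the 10 genes in E2 against OVX, a comparison in which 4.16% of all genes passed and 1.28% passed on the lower side. Both were also past the 2-fold cut, as were 1.27% of all genes. Groups did not overlap for Igfbp3 alone among the 10, against 2.83% of all genes. The median log2 fold change of the 10 was -0.11, and that of all genes tested 0.01.

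With all 24 libraries and no covariate, the 4 abundant binding proteins gave no call in any of the 6 comparisons. IGFBP4 mostly restrains IGF action and is cleaved by the protease PAPP-A, IGFBP5 is a matrix-bound binding protein of connective tissue, IGFBP6 prefers IGF2, and IGFBP7 is a distant relative that binds IGF weakly. Igfbp4 ranged from 447 to 935 CPM over the 24 libraries and Igfbp5 from 453 to 1077. Against OVX the Igfbp4 log2 differences were -0.13 (95% interval -0.45 to 0.20) under E2, -0.26 (-0.59 to 0.06) under E4 and -0.01 (-0.34 to 0.31) under TAM. The Igfbp5 differences were -0.30 (-0.64 to 0.05), -0.33 (-0.67 to 0.01) and -0.10 (-0.44 to 0.24). With the mean log2 level of the fibroblast marker list as a covariate, Igfbp4 in E4 against E2 turned from -0.13 (adjusted p = 0.574) to 0.40 (adjusted p = 0.0215). The fibroblast list itself was lower under E4, with the values given beside Igf1. Without E4 C39, Igfbp5 passed in E4 against OVX, at -0.46 (adjusted p = 0.0432).

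The calls of Igfbp6 changed with the libraries and covariates used. OVX libraries ranged from 80.5 to 200 CPM with a median of 103, with C5 highest, and the 6 E2 libraries ranged from 160 to 211 with a median of 174. With all libraries the E2 value against OVX was 0.56 (SE 0.20, adjusted p = 0.118). It was 0.76 without C5 alone (SE 0.18, adjusted p = 0.0112) and 0.76 without OVX C5 and TAM C35 (SE 0.17, adjusted p = 0.00709). E4 libraries ranged from 118 to 241 CPM with a median of 136, and the E4 value against OVX went from 0.30 (adjusted p = 0.274) to 0.50 (adjusted p = 0.0371) without both libraries. TAM libraries, at 109 to 158 CPM with a median of 123, were all below the 6 E2 libraries, and the difference of -0.49 did not pass with all libraries (adjusted p = 0.14) and was -0.56 (adjusted p = 0.0355) without the pair. C5 was also the library with the least ganglion RNA. Among the OVX libraries it had the highest sums of endothelial, fibroblast, macrophage, white adipocyte, brown adipocyte and hepatocyte markers. With the ganglion list as a covariate all 3 differences passed, at 0.72 for E2 against OVX (adjusted p = 0.00589), 0.54 for E4 against OVX (adjusted p = 0.0327) and -0.52 for TAM against E2 (adjusted p = 0.0321). With the fibroblast list as a covariate E2 and E4 passed against OVX, at 0.59 (adjusted p = 0.0217) and 0.75 (adjusted p = 0.0213).

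Igfbp7 libraries ranged from 155 to 287 CPM in OVX, 177 to 221 in E2, 163 to 255 in E4 and 215 to 443 in TAM. The highest value was TAM C35, whose smooth muscle markers summed to 9593 CPM, against 2724 to 5536 CPM in the other 23 libraries. The TAM value against OVX was 0.37 (interval 0.02 to 0.72, adjusted p = 0.216) and that against E2 was 0.46 (adjusted p = 0.108). The latter passed with the ganglion list as a covariate, at 0.41 (adjusted p = 0.0427). With the fibroblast list as a covariate Igfbp7 passed in 4 comparisons, at 0.42 in TAM against OVX (adjusted p = 0.0169), 0.54 in TAM against E2 (adjusted p = 0.000637), 0.52 in E4 against OVX (adjusted p = 0.0104) and 0.63 in E4 against E2 (adjusted p = 0.00751). The values of the E4 pair without it were 0.00 and 0.10. Under TAM the markers of this list did not all move the same way, as given beside Igf1.

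Of the ligands, Igf1 differed between the 2 estrogens and was lowest under E4. Igf1 is the main growth factor downstream of growth hormone and is transcribed in the artery by fibroblasts and macrophages among other cells. OVX libraries ranged from 81.6 to 128 CPM with a median of 106, E2 libraries from 81.9 to 213 with a median of 132, E4 libraries from 49.8 to 98.9 with a median of 68.3, and TAM libraries from 75.1 to 136 with a median of 99.9. The E2 libraries began near the OVX minimum and reached above its maximum, and the E4 range went below it. Igf1 was 48.8% lower under E4 than under E2, and fell by 0.97 on the log2 scale (SE 0.19, adjusted p = 0.00209). Against OVX it fell by 0.53 under E4 (SE 0.19, adjusted p = 0.0432), whereas the E2 value of 0.43 (SE 0.19) did not pass (adjusted p = 0.234). TAM was at -0.02 against OVX, with an interval from -0.41 to 0.37.

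The call of Igf1 in E4 against OVX was not stable. It was lost in 11 of 24 fits with 1 library left out, those without OVX C3, C4, C5, C24 or C25, E2 C6, TAM C12, or E4 C16, C19, C20 or C38, with an adjusted p from 0.0504 to 0.108. Without OVX C5 and TAM C35 it was -0.45 (adjusted p = 0.085), with the B cell list as a covariate -0.36 (adjusted p = 0.615) with the white adipocyte list -0.44 (adjusted p = 0.0937) and with the ganglion list -0.39 (adjusted p = 0.124). It was also lost without the TAM group (-0.53, adjusted p = 0.0503) and without a filter on low counts (-0.53, adjusted p = 0.0681). The difference between E4 and E2 was lost in 0 of 24 such fits.

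Markers of other cell types moved with Igf1 in some comparisons and not in others. The 10 fibroblast markers summed to 5161 to 8169 CPM in OVX, 5303 to 7999 in E2, 3495 to 5759 in E4 and 5129 to 8386 in TAM. In E4 against OVX 6 of these 10 markers were lower and 0 higher, with a median log2 fold change of -0.59 over the list. In E4 against E2 6 were lower and 0 higher, with a median of -0.55. In E2 against OVX 0 passed. In TAM against OVX Col1a1 and Col1a2 were higher and 0 lower, with a median of -0.21. In TAM against E2 the same 2 were higher and Dpt and Ly6a lower, with a median of -0.30. The 10 macrophage markers summed to 391 to 709 CPM in OVX, 758 to 1002 in E2, 304 to 587 in E4 and 409 to 495 in TAM. All 10 were higher in E2 against OVX, with a median of 0.89, and lower in E4 against E2, with a median of -1.08. All 10 were also lower in TAM against E2, with a median of -0.98, where Igf1 did not pass. In E4 against OVX 1 of the 10 was lower, with a median of -0.14. All 10 T cell markers were also lower in E4 against E2, with a median of -3.08, but E2 library C9 weighed heavily in this value. The T cell markers summed to 383 CPM in C9 and to at most 32.3 CPM in the other E2 libraries. The median sums of the groups were 10.2 CPM in E2 and 5.95 CPM in E4. The value of -3.08 is therefore not a measure of a shift shared by all E2 libraries. The part of macrophages and T cells in the Igf1 values was not tested. With the mean log2 level of the fibroblast list as a covariate, the Igf1 difference was -0.04 in E4 against OVX (adjusted p = 0.911) and -0.39 in E4 against E2 (adjusted p = 0.184). Igf1 per fibroblast and the number of fibroblasts cannot be told apart in these libraries.

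**Figure D4:**
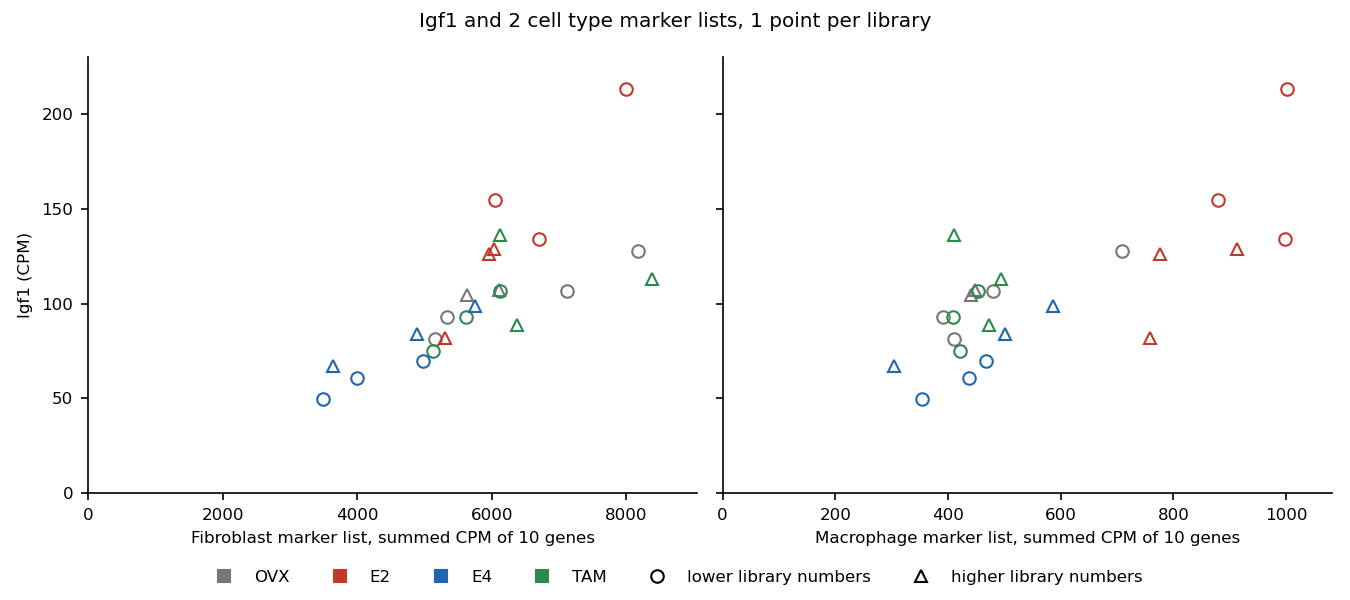
Igf1 level in CPM against the summed CPM of 10 fibroblast markers (left) and 10 macrophage markers (right), with 1 point per library, colours for the 4 groups and shapes for the series of library numbers. The E4 libraries lie at the lower left of the fibroblast panel, at 3495 to 5759 CPM, and the E2 libraries at the right of the macrophage panel, at 758 to 1002 CPM.

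Igf2, an imprinted growth factor that is abundant in the fetus and low in most adult rodent tissue, was higher under E4 and TAM than under E2. E2 libraries ranged from 13.1 to 17.5 CPM with a median of 17.04, E4 libraries from 19.3 to 28.8 with a median of 22.5, and TAM libraries from 17.6 to 28.5 with a median of 22.2. Neither E4 nor TAM overlapped E2. OVX libraries lay between and overlapped each of the other groups, at 15.4 to 24.01 CPM with a median of 19.2. Igf2 was 1.45-fold higher in E4 than in E2 (log2 fold change 0.54, SE 0.12, adjusted p = 0.00788) and 1.39-fold higher in TAM than in E2 (0.48, SE 0.12, adjusted p = 0.0213). The TAM call was lost without E2 C9 (0.43, adjusted p = 0.0619) and without TAM C33 (0.44, adjusted p = 0.0537), with the 2 groups alone (0.49, adjusted p = 0.0548) and in the library numbers up to 20 alone (0.40, adjusted p = 0.158). In those library numbers the E4 call was at 0.54 (adjusted p = 0.0561). Against OVX no agent passed: the values were -0.27 under E2 (adjusted p = 0.286), 0.27 under E4 (adjusted p = 0.115) and 0.21 under TAM (adjusted p = 0.333). With the fibroblast list as a covariate the E4 value was 0.51 and passed (adjusted p = 0.018).

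The level of Igf2 was uncertain. Counts of Gm49394 were 92.2% to 97.5% of those of Igf2 in every library. Igf2 counts carried decimals in 12 of the 24 libraries and those of Igfbp7 in 11, whereas the other 8 members had whole counts throughout, so reads over shared exons had been divided between genes. Summed with Gm49394, Igf2 was at 37.9 ± 5.60 CPM in OVX (n = 6), and the differences were 0.54 in E4 against E2 (adjusted p = 0.00737) and 0.48 in TAM against E2 (adjusted p = 0.0194). This sum was added after the data were seen.

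Of the receptors, Igf1r, the tyrosine kinase through which both ligands signal, was higher under E4. OVX libraries ranged from 65.0 to 87.2 CPM with a median of 80.7, E2 libraries from 65.0 to 84.8 with a median of 75.5, E4 libraries from 87.0 to 98.7 with a median of 95.3, and TAM libraries from 69.0 to 114 with a median of 89.7. The E4 libraries were close together and lay above all E2 libraries, and they overlapped OVX by 1 library. Igf1r rose by 22.03% under E4 against OVX (log2 fold change 0.29, SE 0.10, adjusted p = 0.037) and was 26.7% higher under E4 than under E2 (0.34, SE 0.10, adjusted p = 0.0246). Both calls depended on single libraries and on marker covariates. The first was lost without OVX C3 or C5, or E4 C16, C19, C36, C38 or C39, with an adjusted p from 0.0536 to 0.101, and the second without E2 C6, C8 or C9, with an adjusted p from 0.0532 to 0.0727. Upper-quartile scaling also ended the first, at 0.22 and an adjusted p of 0.11, as did no filter on low counts (0.29, adjusted p = 0.0626) and the library numbers up to 20 alone (0.30, adjusted p = 0.102). With the B cell, white adipocyte and fibroblast lists as covariates the value against OVX was 0.20, 0.26 and 0.33 (adjusted p = 0.566, 0.0744 and 0.0866), and that against E2 was 0.29, 0.29 and 0.39 (adjusted p = 0.147, 0.0993 and 0.0824). Under E2 the value against OVX was -0.05, with an interval from -0.26 to 0.15, and under TAM it was 0.24, with an interval from 0.04 to 0.44 (adjusted p = 0.158). TAM against E2 gave 0.30 with edgeR (adjusted p = 0.0693) and passed with DESeq2, at 0.31 (adjusted p = 0.0324).

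Igf2r, which encodes the mannose 6-phosphate receptor that clears IGF2, moved within a narrow band. OVX libraries ranged from 68.1 to 87.9 CPM with a median of 78.1, E2 libraries from 70.8 to 85.8 with a median of 73.4, E4 libraries from 80.3 to 95.01 with a median of 91.1, and TAM libraries from 79.8 to 104 with a median of 88.4. All 4 ranges overlapped. Igf2r passed in TAM against E2, where it was 18.5% higher (log2 fold change 0.25, SE 0.07, adjusted p = 0.0486). That call held in 7 of 24 fits with 1 library left out, those without OVX C3, C5 or C25, E2 C27 or C29, TAM C11 or E4 C38, and in the other 17 the adjusted p ran from 0.0528 to 0.115. E4 against E2 gave 0.21 (adjusted p = 0.0623), E4 against OVX 0.19 (adjusted p = 0.0661) and TAM against OVX 0.23 (adjusted p = 0.0898). E4 against E2 passed in 11 other settings, among them DESeq2 (0.23, adjusted p = 0.023) and the series of library numbers as a covariate (0.22, adjusted p = 0.0369), and E4 against OVX passed in 7, DESeq2 among them (0.21, adjusted p = 0.0286). With the B cell and white adipocyte lists as covariates TAM against E2 did not pass, at 0.25 and 0.27 (adjusted p = 0.0679 and 0.0692). It was lost in 10 of 17 settings other than leaving out 1 library, among them upper-quartile scaling (adjusted p = 0.0846), no filter on low counts (0.0874) and the 2 groups alone (0.118). Without OVX C5 and TAM C35 it did not pass either, at 0.21 (adjusted p = 0.0633), whereas E4 against E2 did, at 0.22 (adjusted p = 0.0254), and so did E4 against OVX, at 0.21 (adjusted p = 0.0474).

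Counted by comparison, E4 against OVX had 3 calls among the 10 genes, Igf1r higher and Igf1 and Igfbp3 lower, where 22% of all genes passed, 9.52% higher and 12.5% lower. Of the 3, 0 were past 2-fold, against 2.51% of all genes, and only Igfbp3 had groups that did not overlap, against 9.37%. TAM against OVX had 0 calls with edgeR, 3 genes at an unadjusted p under 0.05 (Igf1r, Igf2r and Igfbp7), where 21% of all genes were, and 1 call with DESeq2, Igf2r at 0.23 (adjusted p = 0.0345), where DESeq2 called 6.52% of all genes. With edgeR 2.21% of all genes passed there, 0.308% past 2-fold, and no member had groups that did not overlap, against 2.58% of all genes. E4 against E2 had 4 calls, with Igf2, Igf1r and Igfbp2 higher and Igf1 lower, where 12.5% of all genes passed, 3.55% higher and 8.97% lower. Igfbp2 was past 2-fold there, as were 2.47% of all genes, and the groups of Igf2 and Igf1r did not overlap, against 6.17%. TAM against E2 had 4 calls, all higher (Igf2, Igf2r, Igfbp2 and Igfbp3), where 6.44% passed and 1.93% passed on the higher side. Igfbp2 was past 2-fold, as were 1.65% of all genes, and the groups of Igf2, Igfbp2 and Igfbp6 did not overlap, against 4.24%. TAM against E4 had 1 call, Igfbp3, where 0.34% passed, 0.172% of all genes on the higher side, and the groups of 0 members did not overlap, against 0.927%. The median log2 fold change of the 10 genes was -0.13 in E4 against OVX, 0.14 in TAM against OVX, 0.15 in E4 against E2, 0.27 in TAM against E2 and 0.24 in TAM against E4, beside medians of all genes from -0.01 to 0.00.

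Settings that gave members further calls also changed the share of all genes that passed. DESeq2 called 24.9% of all genes in E4 against OVX, 16.2% in E4 against E2 and 9.01% in TAM against E2. Without OVX C5 and TAM C35, 6.62% passed in E2 against OVX, 22.2% in E4 against OVX, 25.7% in E4 against E2 and 13.2% in TAM against E2. Without OVX C5 alone 4.81% passed in E2 against OVX, and without E4 C39 alone 20.1% passed in E4 against OVX. The ganglion list as a covariate gave 8.43% in E2 against OVX, 18.5% in E4 against OVX and 13.4% in TAM against E2. The fibroblast list gave 6.91%, 8.64% and 5.91% for E2, E4 and TAM against OVX, 3.16% in E4 against E2 and 8.9% in TAM against E2. In E4 against E2 the number of genes passing thus fell, from 3134 to 791, while Igfbp4 and Igfbp7 were among those that passed.

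The numbers in the library titles fall in 2 series, up to 20 and from 24 on, and the sources do not say what they number or whether the series were batches. All 14 called differences kept their sign within each series. Igfbp3 differed by -1.16 and -1.06 in E2 against OVX and by -0.92 and -0.72 in E4 against OVX, for the first and the second series. Igfbp2 differed by -1.66 and -1.12 in E2 against OVX. Igf1 was less even, at -0.77 and -0.34 in E4 against OVX and at -1.48 and -0.42 in E4 against E2. The second series, with 2 OVX libraries and 3 in each other group, gave 0 calls among the 10 genes in any comparison. Few genes of any kind passed in it. Of all genes tested, 92 passed in E2 against OVX, 5 in E4 against OVX and 0 in TAM against OVX. In E4 against E2 0 passed, and in TAM against E2 115. With the series as a covariate, Igf1r in TAM against E2 was 0.30 (adjusted p = 0.0236) and Igf2r in E4 against E2 was 0.22 (adjusted p = 0.0369), both of which passed there and not without it, where 6.74% and 12.5% of all genes passed. The difference of each effect between the series was tested in all 6 comparisons. Of all 25033 genes 0 passed in any of them with edgeR, and so did 0 of the 60 values of the members. The lowest unadjusted p was 0.00356, for Igf1 in E4 against E2, where the second series differed from the first by 1.05 (SE 0.32, adjusted p = 0.457), and 10.5% of all genes had an unadjusted p under 0.05. Igf1 in TAM against E2 followed, at 0.88 (SE 0.31, unadjusted p = 0.0118, adjusted p = 0.185), where 21.3% of all genes did.

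**Figure D5:**
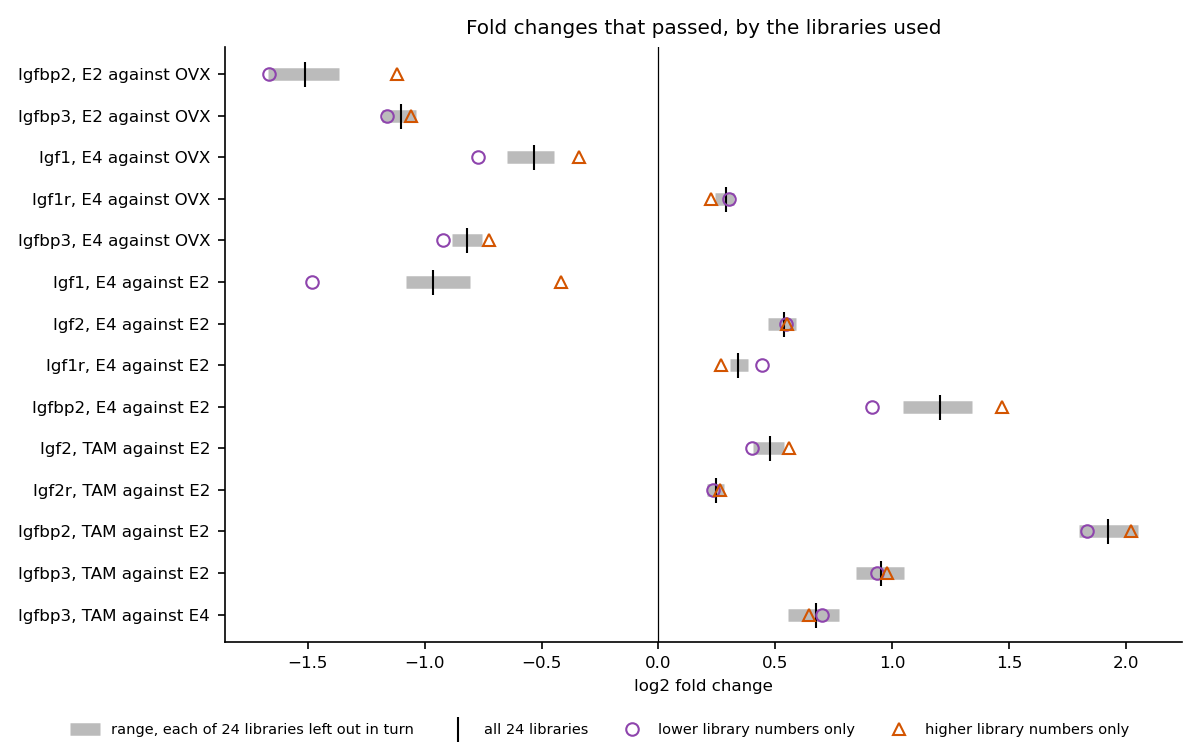
Log2 fold change of the 14 called differences with all 24 libraries (black bar), over the fits that leave out each library in turn (grey band), and in each series of library numbers alone (circle and triangle). All values of a row lie on 1 side of 0, and the rows of Igf1 have circle and triangle farthest apart in E4 against E2, at -1.48 and -0.42.

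Other genes of the pathway were taken from 4 lists of 53 genes in all, of which 49 passed the filter. Transcripts of Igfbp1, Igfbpl1, Irs4 and Ins2 did not, with at most 6, 4, 12 and 4 counts in any library. In E2 against OVX 6 of the 49 were higher and 0 lower, where 2.88% of all genes were higher. In E4 against OVX 13 were higher and 3 lower, where 9.52% of all genes were higher and 12.5% lower. TAM against OVX had 2 higher and 1 lower, beside 1.29% and 0.919% of all genes. E4 against E2 had 4 higher (Irs2, Tsc2, Socs2 and Foxo3) and 5 lower (Htra1, Stc1, Htra3, Ghr and Rps6kb1), beside 3.55% and 8.97% of all genes. TAM against E2 had 2 higher (Stc2 and Igf2os) and 6 lower (Stc1, Htra3, Ghr, Pappa2, Irs1 and Stat5a), beside 1.93% and 4.51%. TAM against E4 had Stc2 higher and Stat5a lower, beside 0.172% and 0.168%. The list of extracellular regulators had a median log2 fold change of 0.62 under E2 and 0.02 under E4 against OVX, the receptors and adaptors of -0.02 and 0.34, and the intracellular genes of 0.04 and 0.14, beside 0.01 and -0.01 for all genes tested. The macrophage list had medians of 0.89 and -0.14 in the same 2 comparisons. The part of cell types in the pathway values was not tested.

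Outside the cell, Stc1, stanniocalcin 1, inhibits the pappalysin proteases that cut IGF-binding proteins. Its level was 5.18 ± 1.31 CPM in OVX, 76.4 ± 18.8 in E2, 22.7 ± 7.69 in E4 and 12.4 ± 2.54 in TAM (mean ± SD, n = 6). The E2 libraries, at 48.5 to 104 CPM, lay above all E4 libraries, at 14.8 to 34.1. Stc1 rose by 3.88 under E2 (SE 0.24, adjusted p = 2.58e-10), by 2.13 under E4 (SE 0.22, adjusted p = 5.25e-06) and by 1.26 under TAM (SE 0.22, adjusted p = 0.00657), in log2 units, and was 1.75 lower under E4 than under E2 (adjusted p = 3.54e-05).

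Pappa2, a pappalysin that cuts IGFBP3 and IGFBP5, rose by 1.13 under E2 (adjusted p = 0.000328) and by 0.60 under E4 (adjusted p = 0.0221), from 2.59 ± 0.697 CPM in OVX. Htra3, a secreted serine protease, rose by 1.10 under E2 (adjusted p = 0.000299) and was at 0.24 under E4 (adjusted p = 0.321). Ghr, the growth hormone receptor, was at 150 ± 20.3 CPM in OVX, 304 ± 55.3 in E2, 166 ± 29.6 in E4 and 146 ± 19.3 in TAM. It rose by 1.02 under E2 (SE 0.13, adjusted p = 1.48e-05) and was 0.87 lower under E4 than under E2 (adjusted p = 0.000208). Stc2, the other stanniocalcin, was at 6.33 ± 1.55 CPM in OVX and 10.3 ± 3.39 in TAM, and passed in TAM against E2 (0.68, adjusted p = 0.0387) and against E4 (1.03, adjusted p = 0.0142), but not against OVX (0.70, adjusted p = 0.056).

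Inside the cell, Irs1, which docks to the activated receptor, was the adaptor that rose under both estrogens, by 1.10 under E2 (adjusted p = 0.000343) and 0.94 under E4 (adjusted p = 0.00143). Irs2 was at 64.8 ± 24.01 CPM in OVX, 56.4 ± 15.1 in E2 and 96.4 ± 11.3 in E4, and rose under E4 by 0.57 (adjusted p = 0.0439). Grb2, an adaptor towards Ras, rose under E4 by 0.60 (adjusted p = 0.00919). Stat5a, a transcription factor of growth hormone signalling, rose by 0.88 under E2 (adjusted p = 0.000118) and by 0.75 under E4 (adjusted p = 0.00083), and Socs2, an inhibitor of the same pathway, rose under E4 by 0.77 (adjusted p = 0.000632). Of the genes downstream of the receptor, Akt1 (0.29), Mtor (0.47), Rptor (0.38), Tsc2 (0.19), Foxo1 (0.54) and Foxo3 (0.71) also rose under E4, and Rps6kb1 (-0.23) and Rictor (-0.26) fell. Foxo1 also passed under TAM, at 0.55 (adjusted p = 0.0403). The insulin receptor gene Insr, at 111 ± 8.71 CPM in OVX, passed in no comparison, with values against OVX between -0.02 and 0.01.

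At the imprinted loci, Airn, the antisense RNA of Igf2r, fell by 0.80 under E4 (adjusted p = 0.000714) and by 0.53 under TAM (adjusted p = 0.0412), from 12.5 ± 2.64 CPM in OVX to 7.19 ± 1.07 and 8.65 ± 0.915. Airn shares no exon bases with Igf2r, although it lies on the other strand within the locus, and the strand setting of the counting was not given in the sources used here. H19, next to Igf2, passed in no comparison, at 13.2 ± 3.82 CPM in OVX.

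For the 6 genes that passed the test over all groups, the genes of most similar profile were listed by Pearson's r of log2 CPM over the 24 libraries, among 19528 genes with a mean of at least 1 CPM. The libraries share group and tissue makeup, so these values are a description. Igf1 was most like Medag (r = 0.923), Igsf10 (0.907) and Gm20488 (0.904), and after the group means were removed r was 0.877, 0.832 and 0.896. Igf2r was most like Slc41a1 (0.908), Ski (0.903) and Myo1e (0.896), and Igf1r was most like Jade2 (0.871), St6gal1 (0.869) and Gab1 (0.865). Igf2 was most like Gm49394 (0.998), with which it shares reads, then Erbb2 (0.849) and Gpr146 (0.826). Igfbp2 was most like Klk10 (0.799), Slc29a1 (0.783) and Vstm4 (0.769), with r within groups of 0.693, 0.427 and 0.440. Igfbp3 was most like A930001C03Rik (0.867), Adam11 (0.853) and Syt12 (0.824), with r within groups of 0.364, 0.433 and 0.260. For Igf2, Igf1r and Igf2r r within groups ran from 0.743 to 0.997.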

How the data were processed

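Carotid artery RNA of 24 libraries, 6 in each of OVX, E2, E4 and TAM, had been sequenced from a stranded poly(A) kit. The authors deposited estimated counts per Ensembl gene, 1 table per library; per the submitters' processing notes the tools were bcl2fastq 2.17, Trim Galore, Bowtie2 and featureCounts with the mm10 (GRCm38) build, and the handling of strand and of reads over several genes is not given in the sources used here. In each library 8.87% to 9.8% of values had decimals, and all were rounded to whole numbers. Bowtie2 does not split reads over introns, so reads across exon junctions may be undercounted if the genome was the target.

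Groups came from sample titles. Counts were scaled by TMM and filtered by filterByExpr in edgeR 4.0.16 (R 4.3.3), and all 24 libraries were fitted together by the quasi-likelihood test, with Benjamini-Hochberg adjustment over 25033 genes. CPM values are counts scaled to a common library size after TMM. SE come from the F statistic, and 95% intervals from a t distribution with 20 degrees of freedom. DESeq2 1.42.0 was an alternative. In data simulated for E4 against OVX over 25033 genes, 200 were changed by 1 on the log2 scale, 80.5% of them were called, and 9 unchanged genes were called. The changed genes all had a mean of at least 1 CPM. That share therefore does not hold for smaller changes or scarcer genes, and most called differences of the members were smaller. The members and lists were chosen with earlier results of these data known. All 10 members are named, with fold changes where they passed; pathway genes are named where they passed, and others were picked after their values were seen. Similar genes are the 3 with the highest r. Promoter windows are RefSeq sequences of GRCm38.p6. Columns of other samples numbered 0. Each library was left out in turn, and 18 other settings were tried.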

Additional observations from a re-analysis of the deposited data

Results flagged for a closer look

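Within each group of 6 libraries, 10 members, all 13 marker lists and the total count were screened for a library far from the rest by Dixon's criterion, which chance meets in about 1 of 20 groups. Of 96 groups, 14 held such a library, where chance gives 4.8.

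TAM library C35 stood apart in 5 measures. Igfbp4 was at 935 CPM there, against 530 to 650 CPM in the other TAM libraries, and Igfbp7 was at 443 CPM, against 215 to 256. Its smooth muscle markers summed to 9593 CPM, against 3466 to 4961, its sympathetic ganglion markers to 243 CPM, against 5944 to 8707, and its skeletal muscle markers to 279 CPM, against 59.1 to 94.8.

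E4 library C39 held the most Igfbp6, at 241 CPM against 118 to 155 in the other E4 libraries, and its endothelial markers summed to 1103 CPM, against 729 to 865, and its Schwann cell markers to 4355 CPM, against 1853 to 2764. E4 library C20 held the least Igf1r, at 87.0 CPM against 94.5 to 98.7. The total count of E4 library C38 was 24647246, against 37505055 to 44224858. In OVX library C5 the macrophage markers summed to 709 CPM, against 391 to 479 in the other OVX libraries, and in OVX library C2 the skeletal muscle markers summed to 163 CPM, against 41.0 to 81.1. In E2 library C27 the B cell markers summed to 22.1 CPM, against 7.10 to 12.3. In E2 library C9 the T cell markers summed to 383 CPM, against 6.33 to 32.3.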

How the results depend on the processing

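None of the 14 called differences reversed under any setting run. The settings that change only the threshold reuse the same fit, so they could not reverse a value. Leave-one-out fits of a comparison include those without a library of a group outside it, where the fold change hardly moved. Over leave-one-out fits 279 of 336 values stayed past the threshold, and over the other settings 175 of 247. Igfbp2 and Igfbp3 in E2 against OVX, Igfbp3 in E4 against OVX, Igf1, Igf2 and Igfbp2 in E4 against E2, and Igfbp2 and Igfbp3 in TAM against E2 passed whichever library was left out. With 1 library left out, members passing numbered 2 to 3 in E2 against OVX, 1 to 4 in E4 against OVX, 0 to 0 in TAM against OVX, 3 to 5 in E4 against E2, 2 to 5 in TAM against E2, 0 to 1 in TAM against E4 and 6 to 7 over the 4 groups.

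With the first number series alone, members passing fell from 2 to 1 in E2 against OVX, from 1 to 0 in TAM against E4 and from 6 to 3 over the 4 groups. In TAM against E4 1 gene of all tested passed there. The second alone gave 0 members in all of these and in E4 against OVX, E4 against E2 and TAM against E2. Of all genes tested, the second gave 92 in E2 against OVX, 5 in E4 against OVX and 0 in E4 against E2. It gave 115 in TAM against E2 and 74 over the 4 groups. An adjusted p under 0.01 left 1 in E4 against OVX, 2 in E4 against E2, 2 in TAM against E2, 0 in TAM against E4 and 3 over the 4 groups, and the study's 2-fold cut left 0, 1, 1 and 0 in these 4 comparisons. Without a filter E4 against OVX had 1. The B cell list as a covariate left 0 in E4 against OVX, 2 in E4 against E2, 0 in TAM against E4 and 3 over the 4 groups (in E4 against OVX, Igfbp3 was then at -0.80, Igf1 at -0.36 and Igf1r at 0.20, with adjusted p of 0.0762, 0.615 and 0.566), and the white adipocyte list left 1 in E4 against OVX and 2 in E4 against E2. The share of all genes that passed with the B cell or white adipocyte list is not given here. A loss among members therefore cannot be told from a general loss of calls. The ganglion list gave 7 in TAM against E2. DESeq2 and the fibroblast list each gave 1 in TAM against OVX, Igf2r and Igfbp7. TAM against E4 had 0 under median-ratio and upper-quartile scaling, without a filter, with at least 10 counts in every library, with the 2 groups alone, without OVX C5 and TAM C35, and with the fibroblast list. For these changes the cause was not tested.

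Genes passing among all tested were 1041 in E2 against OVX (92 to 2110 over the settings other than leave-one-out and threshold), 5514 in E4 against OVX (5 to 6240, and 3274 without OVX C3), 553 in TAM against OVX (0 to 1632, 73 without OVX C3 and 878 without TAM C35), 3134 in E4 against E2 (0 to 6467, and 1436 without E2 C8), 1612 in TAM against E2 (115 to 3354, and 1008 without E2 C8), 85 in TAM against E4 (1 to 204) and 5253 over the 4 groups (74 to 7569); the lowest came from 1 number series alone. The sum of Igf2 and Gm49394 was chosen after seeing the data and changed no call. No paired analysis was possible because no replicate number is shared between groups.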
